A study of Mus musculus with 3 samples.

Results

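The genes examined here encode the core kinases of PI3K and AKT signalling: the class I PI3K catalytic subunits Pik3ca, Pik3cb and Pik3cd, the regulatory subunits Pik3r1 and Pik3r2, the kinases Akt1 and Akt2, and Mtor. They were picked out of the deposited table by gene name and make up 8 of its 51826 rows. The cells were ST2, an established stromal line from mouse bone marrow with the capacity to form osteoblasts or adipocytes. Control cells received empty vector and control siRNA, NELL2 overexpression cells received the NELL2 construct and control siRNA, and Fn1 knockdown cells received empty vector and siRNA against Fn1, the gene of the matrix protein fibronectin. All cells were transfected with Lipofectamine 3000 and each siRNA was used at 30 nM. Polyadenylated RNA was sequenced as 150 bp paired ends, and the study used it to look for signalling downstream of NELL2, a secreted glycoprotein, and Fn1. How long after transfection the RNA was taken is not given in the sources used here.

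A class I PI3K is a dimer of a catalytic p110 subunit, which makes the membrane lipid PIP3, and a regulatory subunit, which stabilises p110 and docks it on activated receptors and adaptors. PIP3 recruits AKT to the membrane, where PDK1 and the mTOR complex mTORC2 phosphorylate it, and active AKT in turn relieves the brake on mTORC1, which drives protein synthesis and growth. In bone, this pathway is known for its part in the survival and differentiation of osteoblast lineage cells. The libraries measured RNA only, so they hold no value for the phosphorylation or activity of these kinases.

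Each of the 3 groups was sequenced as 1 library, without replicates, so every difference is one between libraries and carries no test. Values are FPKM, fragments scaled to transcript length and to the size of the library, so that levels can be compared between genes. Differences are given on the log2(FPKM + 1) scale, which understates the change of genes of low level. A gene was called higher or lower when the difference reached 1 on this scale (2-fold) and the gene was at 1 FPKM or more in either library. Both comparisons with the control use the same control library and are therefore not independent of each other. In RNA from a bulk culture, fewer cells of a type and less RNA per cell cannot be told apart.

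The targeted genes followed their labels. Nell2 was at 0.640 FPKM in control cells, 326 FPKM with NELL2 overexpression and 1.06 FPKM with Fn1 knockdown. Fn1 was at 2802, 2489 and 137 FPKM in the same order. The libraries held about 23000000, 23700000 and 24200000 fragments as estimated from the smallest values. All 8 stromal markers were at 1 FPKM or more in each library, with sums of 3405 to 3766 FPKM. None of the 6 haematopoietic markers that could be read reached 1 FPKM in any library (sums of 1.10 to 2.32 FPKM, with Cd3e listed at 0). Of 4 markers each, none of the epithelial list reached 1 FPKM, and 1 each of the endothelial (Kdr, in the Fn1 knockdown library), adipocyte (Fabp4) and osteoblast (Sp7) lists did.

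Of the 8 kinase genes, 0 were called in any of the 3 comparisons. The gene that came nearest was Akt2, at 45.6 FPKM with Fn1 knockdown against 23.0 FPKM in the control library. Akt1, the more abundant of the AKT genes among the 8, was at 153 FPKM in that library against 155 FPKM in the control library. The 7 other kinase genes differed from the control by at most 0.34 on the log2 scale in either transfection.

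**Figure D1:**
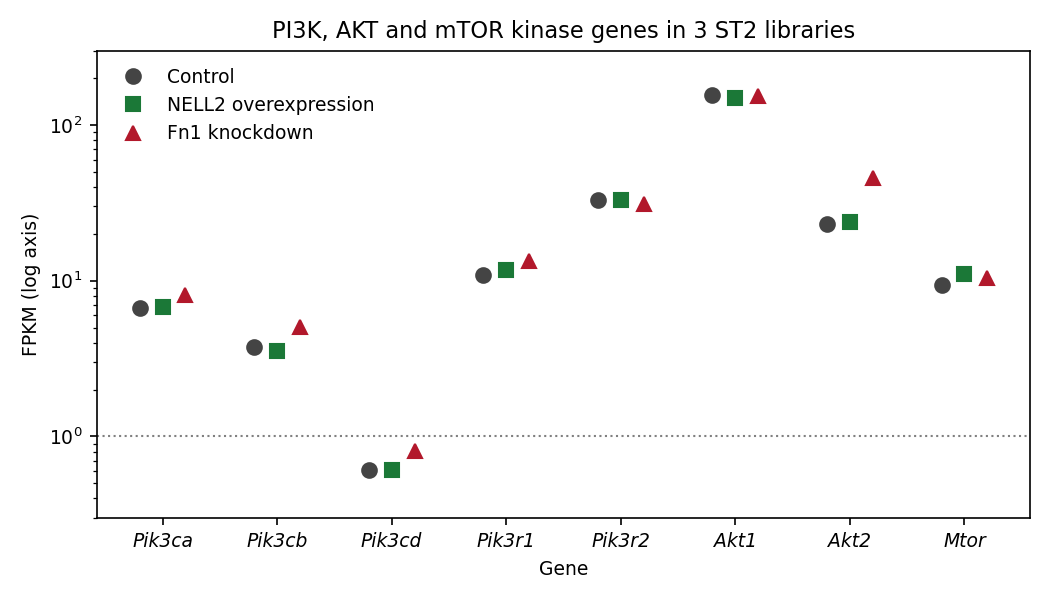
Levels of the 8 kinase genes in FPKM on a log axis, 1 point per library (control, NELL2 overexpression, Fn1 knockdown), with no error bars because each group had 1 library. Akt1 lies highest, at 149 to 155 FPKM, Pik3cd lies lowest, at 0.609 to 0.807 FPKM, and the widest gap between libraries in proportion to level is that of Akt2.

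Because Akt1 and Akt2 are paralogs, the reach of the reads in telling them apart was read from their coding sequences in GENCODE M21 (GRCm38). The stretches below surround the serine codon of the hydrophobic motif, the C-terminal site that mTORC2 phosphorylates in the protein. They are shown because the difference of Akt2 between libraries rests on reads being assigned to the right paralog, and each is 45 coding bases, 5′ to 3′ on the coding strand, with the serine codon in capitals. They lie at chr12:112654704-112654748 (minus strand) for Akt1 and chr7:27638091-27638135 (plus strand) for Akt2.
Akt1: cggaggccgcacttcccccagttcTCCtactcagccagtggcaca
Akt2: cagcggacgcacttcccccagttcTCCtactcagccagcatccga
The serine is residue 473 of 480 in Akt1 and 474 of 481 in Akt2. Even in this conserved stretch Akt2 had the base of Akt1 at 37 of 45 positions. Over whole coding sequences, the longest run of identical bases was 32 for Akt1 and Akt2, shorter than a 150-base read. Between pairs of the PI3K subunit genes of one kind, catalytic or regulatory, it was 15 to 20 bases. Only a single principal transcript of each gene was compared, without untranslated regions or pseudogenes. Whether reads were assigned to the wrong paralog was not tested.

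The catalytic subunits came first in order of role. Pik3ca (ENSMUSG00000027665.13, chr3:32397671-32468486, plus strand) encodes p110alpha, the catalytic subunit that most growth factor receptors use. Its level was 6.70 FPKM in control cells, 6.83 FPKM with NELL2 overexpression and 8.05 FPKM with Fn1 knockdown. It was therefore highest after Fn1 knockdown, by 20.2% over the control (0.23 on the log2 scale), while NELL2 overexpression gave a difference of 0.025. Among all genes tested, 34.4% differed from the control by at least as much as Pik3ca did in the Fn1 knockdown library.

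Pik3cb (ENSMUSG00000032462.14, chr9:99036654-99140621, minus strand) encodes p110beta, a catalytic subunit that can also be activated by G protein-coupled receptors. It was at 3.74, 3.54 and 5.01 FPKM in control, NELL2-overexpressing and Fn1 knockdown cells. The order of libraries was like that of Pik3ca in having Fn1 knockdown highest, 34.2% above the control (0.34 on the log2 scale) and 41.4% above NELL2 overexpression (0.40). Differences of at least this size from the control were seen in 19.7% of all genes tested.

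Pik3cd (ENSMUSG00000039936.18, chr4:149649168-149702571, minus strand) encodes p110delta, best known from leukocytes. Its levels were 0.610, 0.609 and 0.807 FPKM. It was below 1 FPKM in all libraries and so could not be called, which leaves 7 of the 8 kinase genes in the counts that use this filter. These levels correspond to about 52, 54 and 73 fragments, the fewest of any of the 8 genes. The leukocyte marker Ptprc was at 0.0452, 0.0633 and 0.0331 FPKM in the same libraries. Pik3cg, which encodes the remaining class I catalytic subunit and was not among the 8 genes, was at 0.0316, 0.0434 and 0.0161 FPKM.

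Of the catalytic RNA of the 4 class I genes, which summed to 11.1, 11.0 and 13.9 FPKM, Pik3ca made up 60.5%, 61.9% and 58.0% in control, NELL2-overexpressing and Fn1 knockdown cells. Pik3cb made up 33.7%, 32.1% and 36.1%. The order Pik3ca, Pik3cb, Pik3cd, Pik3cg was thus the same in all 3 libraries, and the sum was highest after Fn1 knockdown.

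The regulatory subunits were more abundant than the catalytic ones. Pik3r1 (ENSMUSG00000041417.15, chr13:101680563-101768217, minus strand) encodes p85alpha and its shorter forms, the regulatory subunit most widely used. It was at 10.9 FPKM in control cells, 11.8 FPKM with NELL2 overexpression and 13.3 FPKM with Fn1 knockdown. Both transfections were above the control, by 0.11 and 0.27 on the log2 scale, and differences as large were seen in 44.5% and 29.2% of all genes tested.

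Pik3r2 (ENSMUSG00000031834.15, chr8:70768176-70776713, minus strand) encodes p85beta. Its levels were 33.2, 33.0 and 31.2 FPKM in control, NELL2-overexpressing and Fn1 knockdown cells, the narrowest range of the regulatory genes in proportion to level. It differed from the control by -0.0052 after NELL2 overexpression and by -0.087 after Fn1 knockdown. Its exons overlap those of 6330537M06Rik on the opposite strand, which was at 0.337 to 0.560 FPKM, and whether strand was used in counting is not given in the sources used here. No gene of the 8 shares an exon with another gene on its own strand.

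Pik3r3, a further regulatory subunit gene outside the 8, was at 14.4, 15.7 and 15.4 FPKM, and it shares exons with Gm49337 on its own strand, so its reads could have been divided between both annotations. Pik3r5 and Pik3r6, whose products partner p110gamma, were at or below 0.392 FPKM in all libraries. Pik3r2 held 56.4%, 54.4% and 51.9% of the summed RNA of the 5 class I regulatory genes in control, NELL2-overexpressing and Fn1 knockdown cells. Pik3r1 held 18.5%, 19.4% and 22.1% in the same order. The ratio of the sum of Pik3r1, Pik3r2 and Pik3r3 to the catalytic sum was 5.28 in control cells, 5.49 with NELL2 overexpression and 4.31 with Fn1 knockdown, and was therefore lowest in the library where the catalytic sum was highest.

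Akt1 (ENSMUSG00000001729.14, chr12:112653821-112674884, minus strand) encodes the most widely expressed AKT kinase, known for its part in cell growth and survival. It was by far the most abundant of the 8 genes, at 155 FPKM in control cells, 149 FPKM with NELL2 overexpression and 153 FPKM with Fn1 knockdown. Its differences from the control were -0.063 and -0.020 on the log2 scale. For NELL2 overexpression 64.2% of all genes tested differed at least as far, and for Fn1 knockdown 93.3%. The Akt1 levels correspond to about 3885 to 4080 fragments per library at a median transcript length of 1102 bases. That length is below the Akt1 coding sequence of 1440 bases, so these estimates may be too low.

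Akt2 (ENSMUSG00000004056.15, chr7:27591552-27640826, plus strand) encodes the AKT kinase best known from insulin-stimulated glucose uptake. It was at 23.0 FPKM in control cells, 23.8 FPKM with NELL2 overexpression and 45.6 FPKM with Fn1 knockdown. The control and NELL2 overexpression libraries lay close together, 0.043 apart on the log2 scale, and the Fn1 knockdown library stood above both. It was 98.1% above the control (0.96 on the log2 scale) and 91.9% above NELL2 overexpression (0.91), both just short of the 2-fold cutoff. By size of difference Akt2 ranked 185 of 12574 genes in the first comparison and 216 of 12596 in the second, so that 1.47% and 1.71% of genes differed at least as far. The levels correspond to about 595, 634 and 1241 fragments at a median transcript length of 1125 bases. That length is below the Akt2 coding sequence of 1443 bases, so these estimates may be too low.

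**Figure D2:**
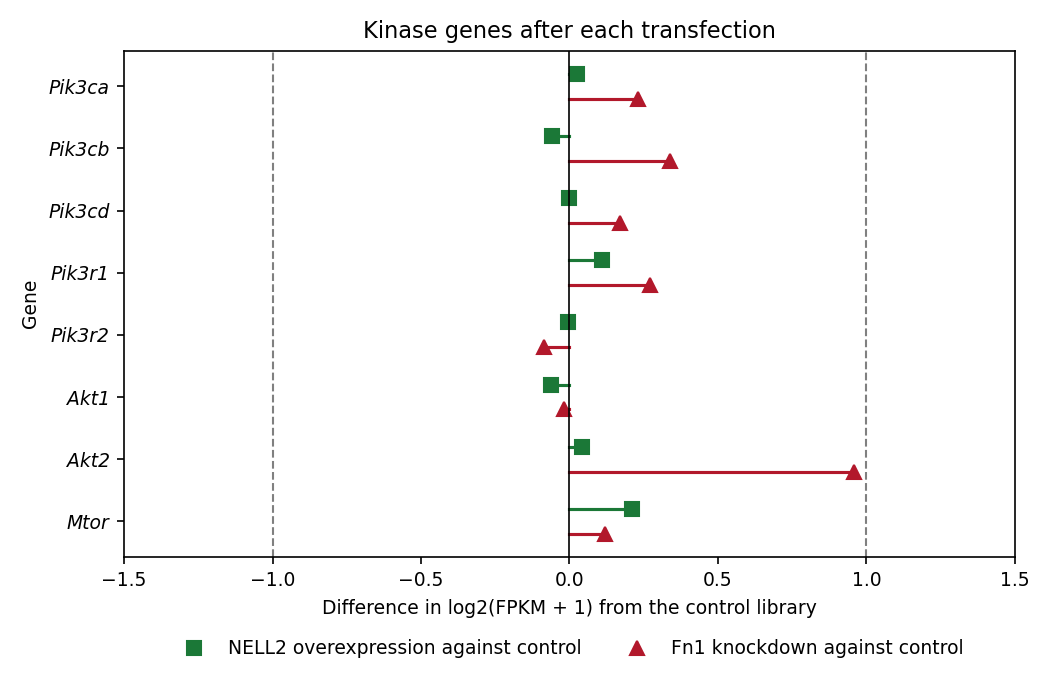
Difference in log2(FPKM + 1) from the control library for the 8 kinase genes, with squares for NELL2 overexpression, triangles for Fn1 knockdown and dashed lines at the 2-fold cutoff. All squares lie between -0.063 and 0.21, and the triangle farthest from 0 is Akt2 at 0.96.

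The RNA of Akt1 and Akt2 together summed to 178 FPKM in control cells, 172 FPKM with NELL2 overexpression and 199 FPKM with Fn1 knockdown. Akt2 made up 12.9%, 13.8% and 23.0% of this sum, and Akt1 the remaining 87.1%, 86.2% and 77.0%. The Fn1 knockdown library was set apart by its larger Akt2 share, while Akt1 was the more abundant in all 3. The ratio of Akt1 to Akt2 was 6.74, 6.25 and 3.36.

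**Figure D3:**
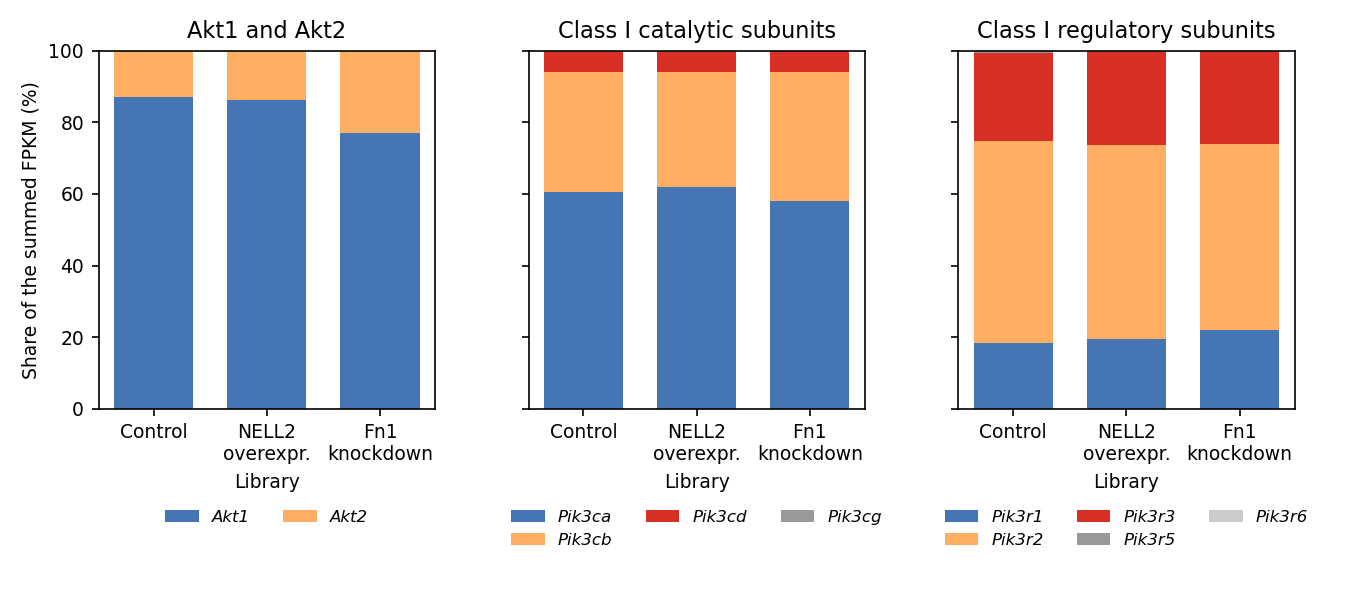
Share of the summed FPKM held by each gene, in percent from 0 to 100, for Akt1 and Akt2, the class I catalytic genes and the class I regulatory genes in control, NELL2-overexpressing and Fn1 knockdown cells. The Akt2 share is 12.9%, 13.8% and 23.0%, and Akt1, Pik3ca and Pik3r2 hold the largest share of their panel in each library.

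Mtor (ENSMUSG00000028991.15, chr4:148448611-148557683, plus strand) encodes the kinase of both mTOR complexes. It was at 9.44 FPKM in control cells, 11.1 FPKM with NELL2 overexpression and 10.4 FPKM with Fn1 knockdown. It was the gene of the 8 with the largest difference after NELL2 overexpression, 17.8% above the control (0.21 on the log2 scale), and 19.1% of all genes tested differed at least as far. After Fn1 knockdown the difference from the control was 0.12, and 59.3% of genes differed at least as far.

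Counted as a group, 0 of the 7 kinase genes at 1 FPKM or more were called after NELL2 overexpression, where 0.652% of all 12572 genes tested were called. With Fn1 knockdown 0 of 7 were called against the control, where 1.23% of 12574 genes were, and 0 of 7 against NELL2 overexpression, where 1.29% of 12596 genes were. At a lower cutoff of 1.5-fold, none was past it after NELL2 overexpression (2.59% of all genes). Only Akt2 was past it after Fn1 knockdown, against the control (6.24% of all genes) and against NELL2 overexpression (6.40%). With 7 genes, such shares amount to fewer than 1 gene in each comparison, so these counts do not set the group apart from other genes.

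The direction of the small differences was described without a test. After NELL2 overexpression 4 of the 7 genes (57.1%) were above the control and 3 below, beside 52.3% above among all genes. The median was 0.025 beside 0.0072 over all genes. After Fn1 knockdown 5 (71.4%) were above and 2 below, beside 49.5% above among all genes, with a median of 0.23 beside -0.0028. The 5 were Pik3ca, Pik3cb, Pik3r1, Akt2 and Mtor, and the 2 were Pik3r2 and Akt1. Without Akt2 the median after Fn1 knockdown was 0.18. Over all genes the median size of the difference, whatever its direction, was 0.16 in that comparison. The sum of all 8 genes was 243, 239 and 267 FPKM, of which Akt1 alone held 63.9%, 62.1% and 57.3%.

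Across the rest of the pathway, 110 genes in 11 lists, the 8 included, were all present in the table, and in each comparison 97 of them reached 1 FPKM in either library. None of the 97 was called after NELL2 overexpression (0.652% of all genes tested). After Fn1 knockdown 1 of the 97, Rragd, was called, lower against the control (1.23% of all genes) and lower against NELL2 overexpression (1.29%). Past 1.5-fold were 0 of the 97 after NELL2 overexpression (2.59% of all genes tested), 10 after Fn1 knockdown against the control (5 higher, 5 lower, beside 6.24% of all genes) and 10 against NELL2 overexpression (4 higher, 6 lower, beside 6.40%). Medians over the lists together were -0.00016, 0.033 and 0.043.

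**Figure D4:**
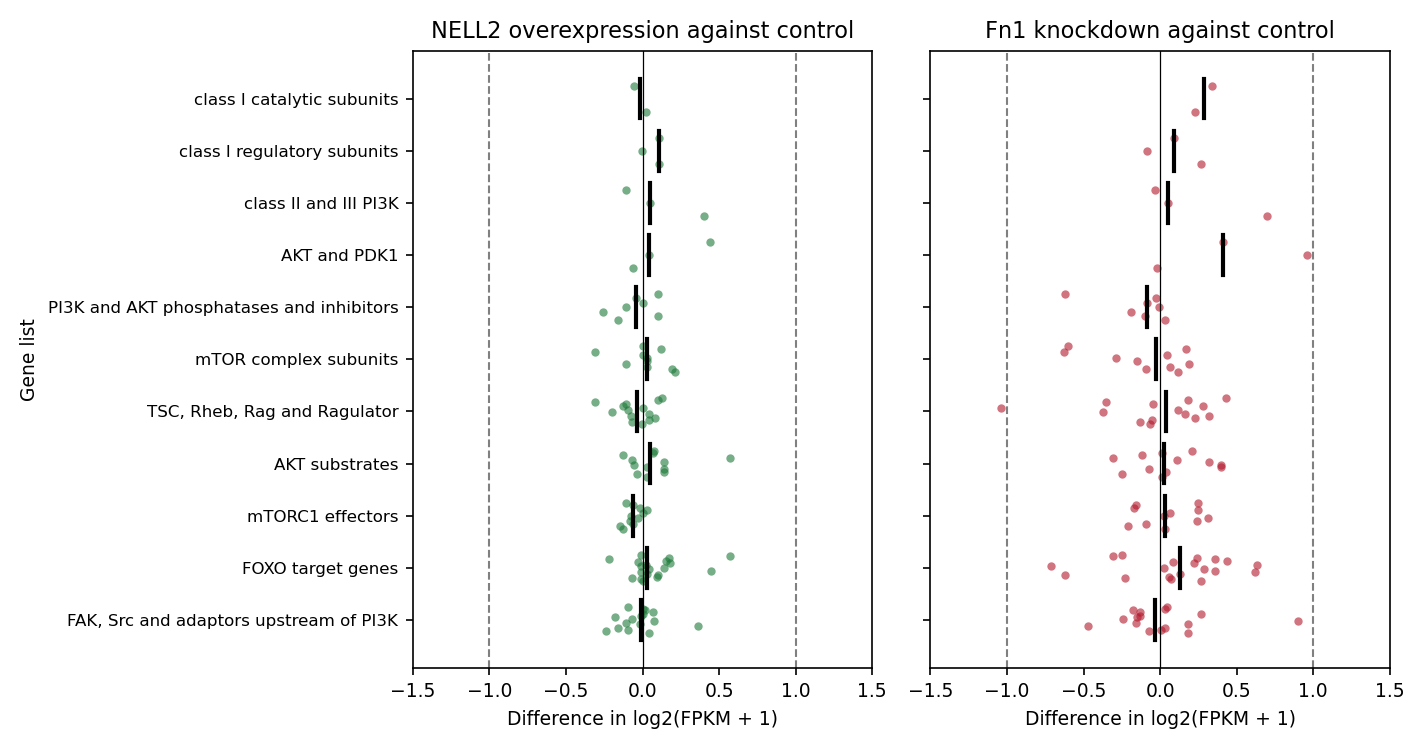
Difference in log2(FPKM + 1) from the control library for each gene of the 11 pathway lists at 1 FPKM or more, 1 row per list and 1 panel per comparison with the control, with thick vertical bars at the list medians and dashed lines at the 2-fold cutoff. The NELL2 overexpression points stay between -0.31 and 0.57, and the only point past the cutoff is Rragd (-1.04) after Fn1 knockdown.

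Upstream of PI3K, the list of FAK, Src and adaptor genes held 16 genes, all at 1 FPKM or more, of which 0 were called in any comparison. Grb2, the adaptor that links receptors to Ras and to PI3K-docking scaffolds, was at 20.0, 21.1 and 38.1 FPKM in control, NELL2-overexpressing and Fn1 knockdown cells. That difference of 0.90 from the control after Fn1 knockdown was the largest of the list. Yes1, a Src family kinase, was at 7.05, 9.31 and 4.79 FPKM and so lay above the control in one transfection and below it in the other (0.36 and -0.47). Ptk2, which encodes FAK, the kinase at integrin adhesions to fibronectin, was at 24.4, 25.2 and 27.9 FPKM, and its relative Ptk2b was at 5.58, 4.56 and 5.26 FPKM. List medians were -0.014 after NELL2 overexpression and -0.034 after Fn1 knockdown.

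Among the class I lists, which include the genes described above, 2 of 4 catalytic and 3 of 5 regulatory genes reached 1 FPKM and 0 were called. The median of the catalytic list was -0.017 after NELL2 overexpression and 0.29 after Fn1 knockdown, and that of the regulatory list was 0.11 and 0.088. Of the 5 class II and III PI3K genes, 3 reached 1 FPKM and 0 were called, with medians of 0.049 and 0.050. Pik3c2a, a class II kinase that acts in membrane traffic, was at 12.0, 16.1 and 20.1 FPKM, above the control in both transfections (0.40 and 0.70). Pik3c3, the class III kinase of autophagy and endosomes, was at 7.52, 7.82 and 7.82 FPKM, and its partner Pik3r4 was at 9.96, 9.16 and 9.72 FPKM.

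The list of AKT and PDK1 genes held Akt1, Akt2 and Pdpk1, of which 0 were called in any comparison. Pdpk1, the gene of PDK1, was at 11.0 FPKM in control cells, 15.3 FPKM with NELL2 overexpression and 15.0 FPKM with Fn1 knockdown. Both transfections were above the control, by 0.44 and 0.41, and lay 0.024 apart from each other. The list medians were 0.043 and 0.41.

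Of the 9 phosphatases and inhibitors of the pathway examined, 7 reached 1 FPKM and 0 were called, with medians of -0.043 after NELL2 overexpression and -0.088 after Fn1 knockdown. Pik3ip1, a membrane protein that binds p110 and inhibits it, was at 8.94, 9.68 and 5.46 FPKM and lay below the control after Fn1 knockdown by -0.62 on the log2 scale. Inpp5e, a lipid phosphatase of the primary cilium, was at 5.86, 4.72 and 5.01 FPKM. Inppl1, which encodes the phosphatase SHIP2, was at 35.0, 31.2 and 35.8 FPKM.

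Among 11 mTOR complex genes, Mtor included, 10 reached 1 FPKM and 0 were called, with medians of 0.028 and -0.024. Tti1, which helps to assemble mTOR and related kinases, was at 8.01 FPKM in the control and 4.94 FPKM with Fn1 knockdown (-0.60 on the log2 scale), and differed by -0.00027 between NELL2 overexpression and the control. Prr5l, an mTORC2 partner, was at 2.57, 1.87 and 1.30 FPKM, below the control in both transfections. The defining subunits lay closer together between libraries, with Rptor of mTORC1 at 14.3, 14.7 and 15.0 FPKM and Rictor of mTORC2 at 12.2, 12.5 and 11.0 FPKM.

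All 14 genes of the TSC, Rheb, Rag and Ragulator list, which relay growth factor and amino acid signals to mTORC1, reached 1 FPKM. Rragd, a Rag GTPase of the amino acid branch, was at 5.97, 5.97 and 2.39 FPKM and was called lower after Fn1 knockdown (-1.04 against each of the other libraries). It was the 1 gene called of this list, and with a pseudocount of 5 in place of 1 neither call remained. Among Ragulator subunits, Lamtor3 was at 43.7, 35.1 and 34.1 FPKM and Lamtor5 at 30.9, 33.9 and 42.0 FPKM. Rragb, another Rag GTPase, was at 2.29, 1.87 and 1.55 FPKM. The list medians were -0.036 and 0.035.

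Downstream, 12 of 14 genes of AKT substrates reached 1 FPKM and 0 were called, with medians of 0.052 after NELL2 overexpression and 0.028 after Fn1 knockdown. Cdkn1b, which encodes the cell cycle inhibitor p27, was at 11.9 FPKM in control cells, 18.1 FPKM with NELL2 overexpression and 9.35 FPKM with Fn1 knockdown. Its difference of 0.57 after NELL2 overexpression was the largest of the pathway genes at 1 FPKM or more in that comparison. Its FPKM was 153% of the control, and it was short of the 1.5-fold cutoff only on the log2(FPKM + 1) scale. The death-promoting gene Bad was at 18.6, 17.9 and 24.9 FPKM. The transcription factor gene Foxo4 was at 5.54, 5.69 and 7.64 FPKM, and Tbc1d1, a regulator of glucose transporter traffic, at 10.4, 11.6 and 13.2 FPKM.

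Of 12 mTORC1 effector genes, 11 reached 1 FPKM and 0 were called. After NELL2 overexpression 9 of the 11 were below the control and 18.2% above it, beside 52.3% above among all genes. The differences were small, with a median of -0.062 beside 0.0072 over all genes and a lowest value of -0.15. That lowest value was of Rps6kb2, which encodes an S6 kinase, at 13.8, 12.3 and 11.8 FPKM, and its relative Rps6kb1 was at 20.5, 18.7 and 21.0 FPKM. After Fn1 knockdown 7 (63.6%) were above the control, beside 49.5% of all genes, with a median of 0.032 beside -0.0028. Eif4ebp2, a repressor of translation that mTORC1 switches off, was at 21.9, 21.4 and 27.4 FPKM, and Grb10, an adaptor that dampens insulin signalling, was at 111, 103 and 133 FPKM.

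FOXO factors are excluded from the nucleus when AKT is active, and 20 genes known as their targets were examined, of which 19 reached 1 FPKM and 0 were called. After Fn1 knockdown 14 of the 19 (73.7%) were above the control, beside 49.5% of all genes, with a median of 0.13 beside -0.0028 over all genes. Past 1.5-fold were 4 of the 19, 2 in each direction, beside 6.24% of all genes. Above the control were Cat, which encodes catalase, at 46.0, 46.7 and 71.8 FPKM, and Cited2, a transcriptional coregulator, at 71.1, 70.7 and 110 FPKM. Below it were Trp53inp1, a stress-induced gene, at 23.6, 23.4 and 14.0 FPKM, and Pik3ip1, given above. After NELL2 overexpression 12 of the 19 (63.2%) were above the control, beside 52.3% of all genes, with a median of 0.028 beside 0.0072. Txnip, a thioredoxin-binding inhibitor of glucose uptake, was at 25.1, 34.6 and 32.5 FPKM.

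The gene of the 8 with the widest range over the libraries was Akt2, and the genes most like it were sought among the 5740 genes at 10 FPKM or more in every library. Likeness was the distance between the pairs of log2 differences from the control, over 3 libraries only. The nearest was Selenon, which encodes a selenoprotein of the endoplasmic reticulum, at 28.1, 28.4 and 55.2 FPKM (distance 0.0304). Next came Ube2g2, a ubiquitin-conjugating enzyme gene, at 18.8, 19.9 and 37.1 FPKM (0.0359), and Nqo1, a quinone reductase gene, at 92.7, 97.8 and 183 FPKM (0.0372). In all, 7 genes lay within 0.1 of Akt2.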

How the data were processed

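The 3 polyadenylated RNA libraries were sequenced on an MGISEQ-2000 instrument. The submitters' processing notes name HISAT2, DESeq and the build GRCm38. The authors deposited 1 FPKM value per gene and library. The program that computed FPKM, its annotation and its use of strand are not given in the sources used here. The sampling depth was estimated from the smallest FPKM values of single-transcript genes of 600 bases or more. Fragments per gene used the median length of all protein-coding transcripts of the gene, short ones included. They may be too low where this length is below the full coding sequence. Fragments per gene are therefore approximate, and no counting intervals are given.

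From the deposited FPKM, log2(FPKM + 1) was computed with a pseudocount of 1 and libraries were subtracted. Genes that reached 1 FPKM in either library of a comparison were counted as tested, and a difference of 2-fold or more was called. With 1 library per group no p-value was computed. The kinase genes and the pathway and marker lists were chosen with earlier results of these data known. Named were the 8 genes, family members, genes called, the 2 genes per list with the largest difference from the control in each transfection, the 3 genes most like Akt2, and the targeted genes. Genes named beyond this rule (Ptk2, Rptor, Rictor, Cited2, the overlapping 6330537M06Rik and Gm49337, and the markers Ptprc, Cd3e, Kdr, Fabp4 and Sp7) were chosen after their values were seen. Some genes of the lists are not reported here, and the list counts and shares leave them out. Itgam was left out because its name is on more than 1 row. Coordinates and coding sequences are those of GENCODE M21 (GRCm38). The alternatives were other pseudocounts, filters, cutoffs and scalings. Python 3.11.15, numpy 2.4.6, pandas 2.3.3 and matplotlib 3.10.9 were used.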

Additional observations from a re-analysis of the deposited data

How the results depend on the processing

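No paired analysis was possible because the groups held 1 library each, and for the same reason no library could be left out. With a cutoff of 1.5-fold in place of 2-fold, 1 of the kinase genes (Akt2) was called after Fn1 knockdown against the control and 1 against NELL2 overexpression. The calls over all genes (82 after NELL2 overexpression, 155 after Fn1 knockdown, 162 between the transfections) became 325, 784 and 806 at 1.5-fold, 178, 358 and 353 with a pseudocount of 0.1, and 26, 50 and 46 with a pseudocount of 5. A filter at 5 FPKM left 47 calls after NELL2 overexpression. With a pseudocount of 5, Rragd was no longer called. The medians of the kinase genes kept their direction under the pseudocounts of 0.1 and 5 and both scalings, at 0.16 to 0.26 for Fn1 knockdown against the control. None of the 8 genes changed direction under the alternatives run for single genes, but low genes depended on the pseudocount. With 5 in place of 1, Pik3cb after Fn1 knockdown went from 0.34 to 0.20 against the control and from 0.40 to 0.23 against NELL2 overexpression, and the class I catalytic median against the control went from 0.29 to 0.18. Pik3cd after Fn1 knockdown against the control was at 0.17, at 0.35 with a pseudocount of 0.1 and at 0.050 with 5. Other shifts of single kinase genes by over 1.5 times were in differences between -0.059 and 0.025, apart from the same comparisons of Pik3cd with NELL2 overexpression (0.36 and 0.050). Medians of 3 lists, all near 0, changed sign: the class I catalytic list after NELL2 overexpression (-0.017 to 0.025 with the 5 FPKM filter and 0.0079 with no filter), the FAK, Src and adaptor list after Fn1 knockdown (-0.034 to 0.0050 with the 5 FPKM filter), and AKT substrates between the transfections (-0.0016 to 0.0073 with the 5 FPKM filter and with median-of-ratios scaling). With no filter, the medians after NELL2 overexpression and after Fn1 knockdown went from 0.11 and 0.088 to 0.019 and 0 for the class I regulatory list and from 0.049 and 0.050 to 0 and 0 for class II and III PI3K, and that of the phosphatases and inhibitors after Fn1 knockdown from -0.088 to -0.024. With the 5 FPKM filter the last list went from -0.043 to -0.13 after NELL2 overexpression. The other list medians against the control that moved by over 1.5 times lay between -0.092 and 0.052 in both settings compared.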
